A study of Mus musculus with 8 samples.

Results

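The distal end of the X-inactivation center (Xic) 5C map is a stretch of 1140.62 kb on the mouse X chromosome, chrX:102284523-103425147 in mm9, that holds Fgf16, Atrx, Magt1, Cox7b, Atp7a, Tlr13, Pgk1 and Taf9b. Its members were the primer pairs whose HindIII fragments both have their midpoint in this stretch and lie at most 600 kb apart. They number 13089 of the 66495 X-chromosomal primer pairs within that distance, and of 269808 at any distance. The rule uses positions and no measured value. The stretch begins 1.66 Mb from the nearest edit of any allele.

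The study edited the topologically associating domain (TAD) of Tsix, next to that of Xist, and mapped contacts in undifferentiated (day 0) male mouse embryonic stem cells (mESCs, line E14, XY, 129/Ola). The libraries analysed here come from 4 edited alleles with 2 libraries each, and wild-type libraries were not analysed here. On 245kb-INV, an interval of 245 kb that spans most of the Tsix domain is inverted. On Linx-51kb-INV, 51 kb around the Linx cluster of CTCF sites is inverted. Chic1-4kbD and Chic1-14kbD lack 4 kb and 14 kb at the Chic1 cluster of CTCF sites. The 2 libraries of an allele are independent clones, except that those of Chic1-14kbD are replicates of a single clone. All 4 alleles carry an edit and were compared with each other. Without wild type, a difference between alleles cannot be assigned to one of them.

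In 5C, crosslinked chromatin is cut with a restriction enzyme and ligated, and the ligation products between selected fragments are counted with a forward primer on one fragment and a reverse primer on the other. Contacts become rarer with genomic distance, and TADs are stretches within which contacts are more frequent than across their borders. CTCF, a DNA-binding protein that halts the extrusion of chromatin loops by cohesin, is found at many such borders. Of the genes in the stretch, Atrx encodes a chromatin remodeler, Atp7a a copper transporter, Pgk1 an enzyme of glycolysis, Cox7b a subunit of the respiratory chain, Magt1 a magnesium transporter, Tlr13 a receptor for bacterial RNA, Taf9b a factor of basal transcription and Fgf16 a growth factor. Magee1 starts near the left end. Between it and Fgf16 the only protein-coding entry of the annotation used here is Cypt2-ps, beside pseudogenes, the lincRNA 5330434G04Rik and the microRNAs Mir384 and Mir325.

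The sequences shown are those beside the border and the contacts described further on. They were read from the mm9 reference, in which all 1039 X-chromosomal fragments start and end at a HindIII site (AAGCTT). The letters CCANNAGGNGGC, which occur in the core of the CTCF recognition sequence, were searched on both strands. They matched at 12 positions and in 9 of the 23 tiles of 50 kb into which the stretch was divided (39.1%), beside 22 of the 69 tiles to its left (31.9%). The shorter CANNAGGGGGC, which overlaps them, matched at 8 positions in 6 tiles (26.1%), beside 11 of the 69 tiles to the left (15.9%). In the following lines the capitals mark the match within 20 bases on each side, written 5′ to 3′ on the strand of the match.
Upstream of Fgf16, chrX:102958315-102958366, + strand, intergenic: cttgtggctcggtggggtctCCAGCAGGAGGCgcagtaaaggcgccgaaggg
Intron of Atrx, chrX:103102766-103102817, + strand: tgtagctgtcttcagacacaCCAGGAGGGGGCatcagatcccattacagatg
Intron of Atrx near its start, chrX:103121628-103121679, - strand: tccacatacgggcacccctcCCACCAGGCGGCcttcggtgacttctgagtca
Intron of Cox7b, chrX:103214275-103214326, + strand: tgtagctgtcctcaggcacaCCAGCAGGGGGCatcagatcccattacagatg
Intron of Pgk1, chrX:103394414-103394465, - strand: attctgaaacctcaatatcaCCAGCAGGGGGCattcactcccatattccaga
The windows in Cox7b and in the first of the Atrx lines share 49 of 52 letters, and those in Cox7b and Pgk1 share all 12 letters of the match but 29 of 52 overall. The match in Cox7b lies on the + strand and that in Pgk1 on the - strand. Counted from the left, they lie in tiles 19 and 23.

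One of the 4 borders described below lies in Atp7a. It was found with squares of 100 kb but not with squares of 50 kb or 200 kb. The next line shows the 250 bases before the annotated start of this gene, with the match of CANNAGGGGGC in capitals.
Atp7a upstream, chrX:103222365-103222614, + strand: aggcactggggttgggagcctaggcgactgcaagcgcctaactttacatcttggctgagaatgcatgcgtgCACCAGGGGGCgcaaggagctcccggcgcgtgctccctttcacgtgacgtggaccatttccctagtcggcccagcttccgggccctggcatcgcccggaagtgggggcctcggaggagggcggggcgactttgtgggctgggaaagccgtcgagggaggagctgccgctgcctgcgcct
Among the 10 protein-coding genes that start in the stretch, Atp7a alone has a match to either pattern in these 250 bases. These are matches of letters. Binding of CTCF was not measured in these files.

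The stretch holds 135 forward and 132 reverse fragments with a median length of 1998 bp. After primers with very low or very high totals were left out, 131 forward and 127 reverse fragments and 12098 primer pairs remained. Coverage is uneven: the largest gap between neighboring fragment midpoints, 32.4 kb, runs from 102815798 to 102848202. The total count per library ranged from 1614282 in Chic1-14kbD replicate 2 to 21046109 in Chic1-14kbD replicate 1, and the count of the members from 329106 to 3923161. The members took 12.8% to 16.2% of the count in the 6 libraries of the other alleles, and 18.6% and 20.4% in Chic1-14kbD. Ligations between fragments of the X chromosome and a control area on chromosome 5 took 1.18% to 2.34% of the count in the 6 other libraries but 0.278% and 0.130% in Chic1-14kbD. The Chic1-14kbD libraries thus stood apart before any contact was compared, and results that rest on them are also given without them. The reads carry no molecular identifiers, so the counts are not independent molecules.

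Contacts fell with distance in all 8 libraries. The mean count of a primer pair, with each library scaled to 1000000 counts, had a median over the 8 libraries of 37.9 at 23.2 kb (range 31.1 to 49.0) and of 2.63 at 524 kb (2.24 to 3.66). The ratio between these distances was lowest at 12.95 in Chic1-4kbD replicate 2 and highest at 16.3 in Chic1-14kbD replicate 2. The decay exponent, the slope of log2 mean count on log2 distance from 20 to 600 kb, was lowest at -0.869, had a mean of -0.825 ± 0.0268 (SD, n = 8 libraries) and was highest at -0.800. The alleles had means of -0.847 for 245kb-INV, -0.806 for Linx-51kb-INV, -0.808 for Chic1-4kbD and -0.841 for Chic1-14kbD (n = 2 each). Both 245kb-INV libraries, at -0.831 and -0.862, were below those of Linx-51kb-INV and Chic1-4kbD, which overlapped each other, while the Chic1-14kbD libraries, at -0.812 and -0.869, overlapped 245kb-INV and the range of the others. Differences between alleles in the exponent were not tested.

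The decay at the distal end was steeper than in the middle of the map, which lies between the edited interval and this stretch. There the exponent was -0.698 ± 0.0605 (SD, n = 8), and the difference within a library was -0.127 ± 0.0440, from -0.189 to -0.0625. It was negative in 8 of 8 libraries, with a two-sided exact permutation p of 0.0078125, the smallest that 8 libraries allow. The differences of the Chic1-14kbD libraries, -0.0631 and -0.0625, were the smallest. Against the proximal end, left of the edits, the sign was the opposite: the distal end was shallower by 0.0428 ± 0.0273 (SD, n = 8), again in 8 of 8 libraries (exact permutation p = 0.0078125). The distal end thus lay between the other areas in every library. The 8 libraries include 2 replicates of one clone and share the primers, whose efficiencies are part of each slope.

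**Figure D1:**
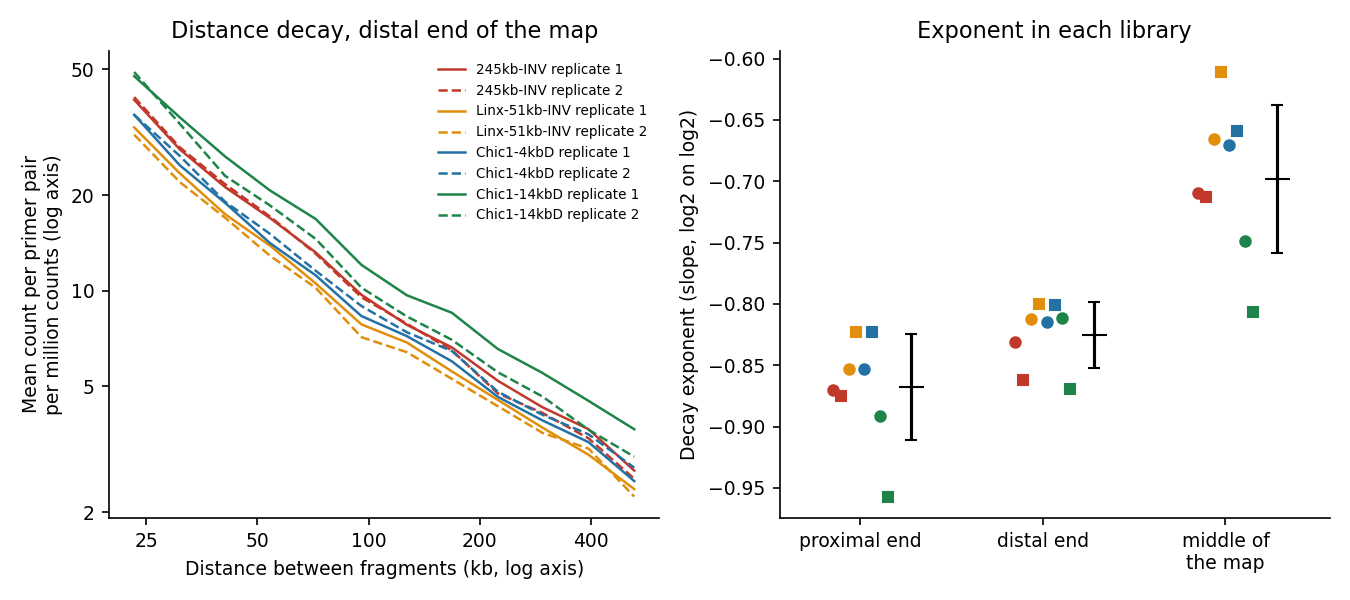
Left, mean count per primer pair with libraries scaled to 1000000 counts (log axis) against distance between fragments in kb (log axis) at the distal end, a line per library, solid for replicate 1 and dashed for replicate 2, with the Chic1-14kbD lines highest at most distances. Right, decay exponent in each library in the colors of the left panel, circles for replicate 1 and squares for replicate 2, with mean and SD over 8 libraries in black: the distal end has -0.825, between the proximal end and the middle of the map.

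To find borders, the counts that join the 100 kb left and the 100 kb right of a position were divided by those that the distance decay of the same library predicts, at steps of 10 kb. The log2 of this ratio is the insulation score, which is low where few contacts cross. Of 95 positions, 42 scored below 0 in all 8 libraries and 23 above 0 in all 8. A border was the lowest mean score within 100 kb on each side, below 0 in all libraries, and 4 positions met this. Since the borders were chosen on these counts, their scores are a description with no test.

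The border placed most alike in the 8 libraries lay in Atp7a, at 103224523, 1.91 kb after the annotated start of the gene. Positions were scored every 10 kb, and this one lies in the same fragment as the gene start, 103220531-103240297. The distance of the border from the gene start and from the upstream sequence printed above is therefore not resolved. The border's score, over 480 primer pairs, was lowest at -0.61, had a median of -0.45 and a mean of -0.47 ± 0.09 (SD, n = 8), and was highest at -0.33. This was the lowest position of the surrounding 50 kb in 8 of 8 libraries, which share the primers. On a linear scale, the contacts across the start of Atp7a were at 0.722 of the number expected for their distance. The difference between the 4 alleles did not pass the edgeR test over all squares (adjusted p = 0.180).

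The lowest score of the stretch, -0.66 ± 0.31 (SD, n = 8), was at 102854523 in the gene-poor part. It rests on 56 primer pairs next to the largest gap in coverage. From there to 102974523 every position scored below 0 in all 8 libraries. This run ends between Fgf16 and Atrx, and the part of it just left of Fgf16, at 102954523, is better covered with 265 primer pairs. There the score was lowest at -0.86 in 245kb-INV replicate 2, with a median of -0.60, and highest at -0.42 in Chic1-14kbD replicate 2, a mean of -0.59 ± 0.14 (SD, n = 8). At 102854523 the Chic1-14kbD libraries had -0.31 and -0.26, and the Linx-51kb-INV libraries -0.92 and -1.03. The 2 Chic1-14kbD libraries were the highest of the 8 there, and the test over 4 alleles gave an adjusted p of 0.000889 (edgeR).

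The other borders were shallower and lay in the gene-poor part. At 102444523 the score was -0.30 ± 0.09 (SD, n = 8) over 258 primer pairs, and at 102624523 it was -0.35 ± 0.15 (SD, n = 8) over 240. The latter ranged from -0.50 in Linx-51kb-INV replicate 2 to -0.05 in Chic1-14kbD replicate 2. Leaving out any library found all 4 borders again within 20 kb. Under 6 other settings of the primers, the squares or the expected count, the borders at 102444523, 102624523, 102854523 and 103224523 were found again in 2, 3, 3 and 4. The border in Atp7a was not found with squares of 50 kb or of 200 kb. With 50 kb squares the nearest border was at 103364523, with -0.81. When the counts were corrected for an efficiency of each primer, the border in Atp7a kept its place with -0.53, and the score at 102444523 was -0.13. With this correction 102624523 and 102854523 had positive scores of 0.034 and 0.12, and a border appeared at 102964523 within Fgf16 with -0.66. Scores were highest between the borders. The score was 0.60 ± 0.10 (SD, n = 8, from 0.47 to 0.75) at 103134523, between the start of Atrx and the end of Magt1, and 0.75 ± 0.07 at 102754523, over 56 primer pairs.

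**Figure D2:**
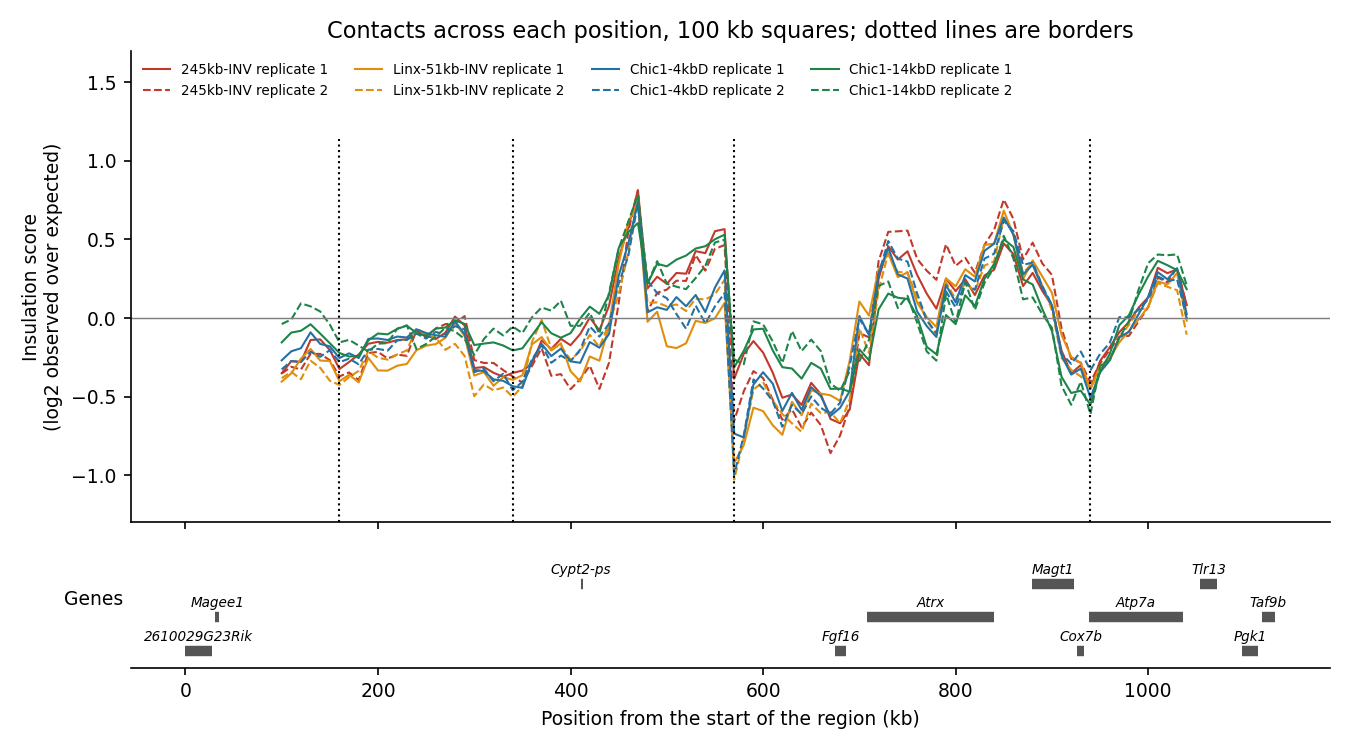
Insulation score (log2 observed over expected count in 100 kb squares) against position in kb from the start of the stretch, a line per library, solid for replicate 1 and dashed for replicate 2, with dotted lines at the 4 borders and protein-coding genes below. The libraries run together, dip at the start of Atp7a and left of Fgf16, and spread most in the gene-poor part around the border with -0.66.

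Contacts were then summed over pairs of 50 kb tiles, numbered 1 to 23 from left to right, and divided by the count expected for their distance. Of 176 tile pairs at least 100 kb apart, 39 were above the expectation in all 8 libraries and 69 below it in all 8, with a median log2 ratio of -0.21. The ranking that follows is by the same counts, so its values are a description. The 10 strongest were above 0 in all 8 libraries and fell into 2 sets, 8 among the gene-poor tiles up to that of Fgf16 and 2 among the genes from Atrx to Pgk1.

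Among the genes, the strongest contact joined tile 19, which holds the starts of Magt1, Cox7b and Atp7a, with tile 22, 150 kb away, which holds Tlr13 and the start of Pgk1. Its log2 ratio over 68 primer pairs was lowest at 1.37 in 245kb-INV replicate 1, had a median of 1.44 and was highest at 1.597 in Chic1-14kbD replicate 2. The mean of 1.45 ± 0.08 (SD, n = 8), 2.74 times the expected count, had the smallest spread among the 10. The strongest single primer pair in it joined the fragment 103210951-103217810, which covers Cox7b and holds the match printed above, with the fragment 103358173-103362055 between Tlr13 and Pgk1. Its count was between 137 and 1849. Of the 68 primer pairs, 52 were above their expected count. Its fragments lie on either side of the border in Atp7a. Tile 22 holds no match of either pattern, and the printed match in Pgk1 lies in tile 23.

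Tile 19 was also the leading partner of tile 17, which holds the start of Atrx, 100 kb away. The log2 ratio was 0.97 ± 0.21 (SD, n = 8), from 0.72 in Linx-51kb-INV replicate 2 to 1.37 in 245kb-INV replicate 2, over 55 primer pairs. Within the body of Atrx, tile 16 had 0.92 ± 0.09 with tile 19. Tile 19 thus had high ratios both with Atrx on its left and with Pgk1 on its right. Taf9b, at the right end in tile 23, had its highest ratio with tile 19 too, 0.58 ± 0.13 (SD, n = 8). The tile of Tlr13 and Pgk1 was also in contact with that of Fgf16, 400 kb to the left, at 0.68 ± 0.15 (SD, n = 8).

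In the gene-poor part, the strongest contact of the stretch joined tile 4 (chrX:102434523-102484522), which holds no protein-coding gene, with tile 14, that of Fgf16, 500 kb away. The log2 ratio over 24 primer pairs was lowest at 1.204 in Linx-51kb-INV replicate 2, had a median of 1.77 and was highest at 2.47 in Chic1-14kbD replicate 2. The 2 Chic1-14kbD libraries, at 2.29 and 2.47, were above the other 6. All 24 primer pairs were above their expected count. Fgf16 was likewise in contact with tile 2 at 1.34 ± 0.47, tile 3 at 1.24 ± 0.47 and tile 5 at 0.94 ± 0.30 (SD, n = 8 each).

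Another tile in several of these pairs was tile 10 (chrX:102734523-102784522), with 4 fragments. Its contacts within itself were also above the expectation, at 1.44 ± 0.22 (SD, n = 8) over 4 primer pairs. Tile 10 had a log2 ratio of 1.58 ± 0.19 with tile 4, of 1.11 ± 0.16 with tile 5 and of 0.95 ± 0.09 with tile 3 (SD, n = 8 each), at 300 kb, 250 kb and 350 kb. The contact with tile 4 did not set the Chic1-14kbD libraries apart as that of Fgf16 did: they had 1.46 and 1.37, within or below the range of the other 6. Tiles 4 and 13 completed the 10 with 1.05 ± 0.43. Neither tile 4 nor tile 10 holds a match of CCANNAGGNGGC. With primer efficiencies corrected, 4 of the 10 remained among the strongest 10. The values were then 1.07 for tiles 4 and 10 and 0.94 for tiles 19 and 22.

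Magee1 was the gene with the weakest partners: its highest ratio was 0.19 ± 0.25 (SD, n = 8), with tile 10, and its libraries ranged from -0.27 to 0.57. Cypt2-ps reached 0.21 ± 0.11, also with tile 10. The libraries of Magee1 lay on both sides of the expectation for the distance, and those of Cypt2-ps above it, from 0.067 to 0.41.

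The weakest contacts joined the gene-poor part with the genes. Of the 176 pairs the lowest, with -2.23 ± 0.90 (SD, n = 8), joined tile 11 with tile 20 in Atp7a over 18 primer pairs, and the next, with -2.07 ± 0.39, joined tile 9 with the tile of the start of Atrx over 55. As a description over tiles, 8 were at least 50% covered by protein-coding gene bodies and 15 were not. The 78 pairs of a tile of one kind with a tile of the other had a mean of library medians of -0.78 ± 0.18 (SD, n = 8), from -1.04 to -0.49. The 17 pairs of gene-body tiles had 0.004 ± 0.16 and the 81 pairs of the other tiles 0.13 ± 0.17. Apart from tile 1, all gene-body tiles lie right of Fgf16, so gene content and position cannot be told apart.

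**Figure D3:**
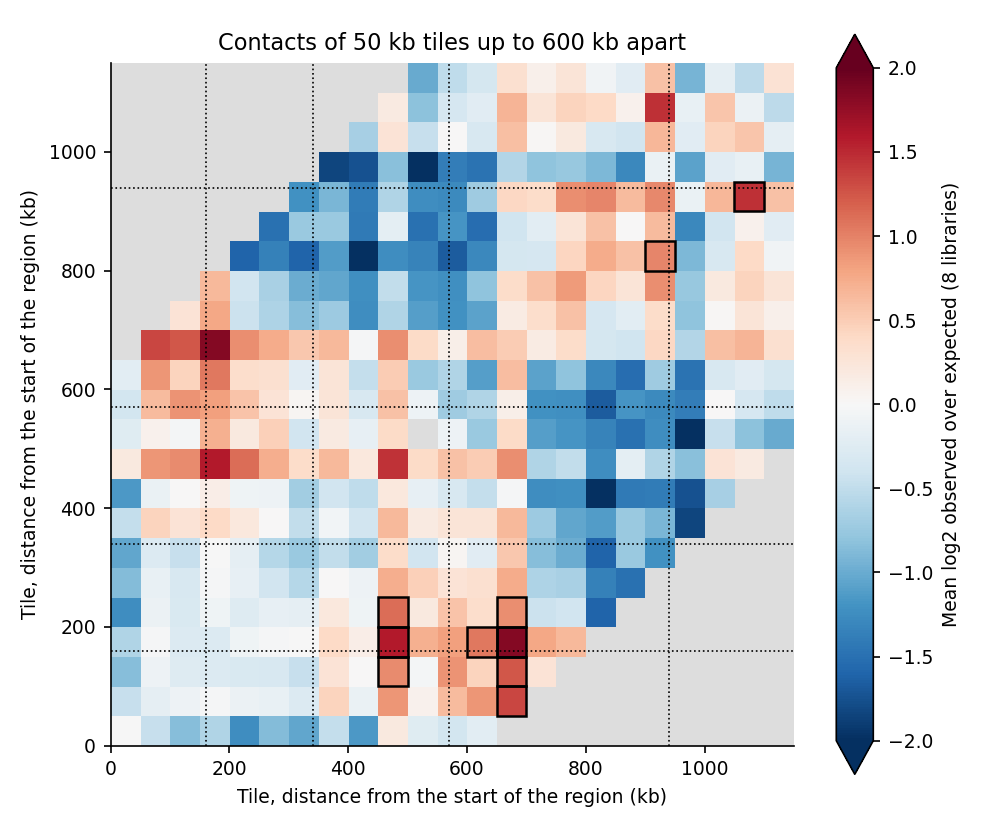
Mean log2 ratio of observed to expected count over 8 libraries for pairs of 50 kb tiles, in red above and in blue below the expectation, with both axes in kb from the start of the stretch, dotted lines at the 4 borders, grey where no value was taken and black frames, drawn below the diagonal, around the 10 strongest pairs at least 100 kb apart. Pairs that join the gene-poor tiles on the left with the genes on the right are mostly blue, and the tile of Fgf16, which starts at 650 kb, has ratios above 0 with tiles on both sides.

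**Figure D4:**
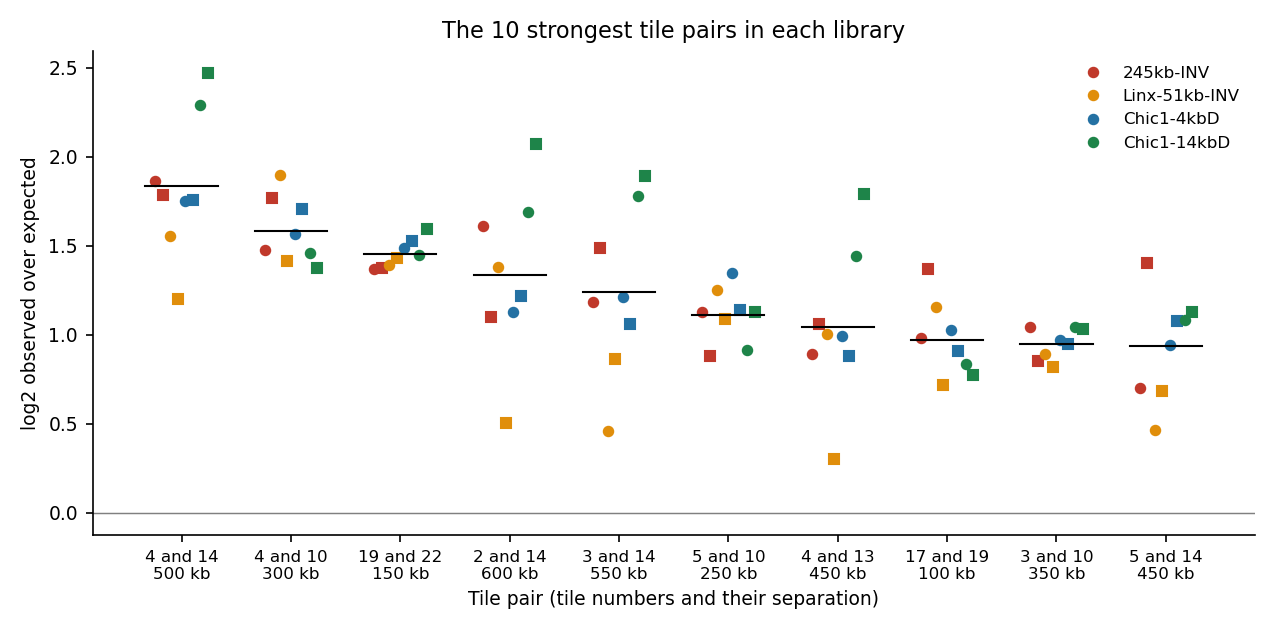
Log2 ratio of observed to expected count of the 10 strongest tile pairs, with tile numbers and separation below, circles for replicate 1, squares for replicate 2 and a black line at the mean of 8 libraries. All points are above 0, tiles 19 and 22 spread least, and the Chic1-14kbD libraries are highest in the pairs of Fgf16 with tiles 2, 3 and 4.

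How far libraries spread where no allele is edited was measured first. The median over 220 tile pairs of the absolute log2 difference between the 2 libraries of an allele was 0.12 in Chic1-4kbD, 0.15 in Chic1-14kbD, 0.17 in Linx-51kb-INV and 0.19 in 245kb-INV. The median of the 4, 0.16, is beside 0.17 over the other unedited tile pairs of the map. Libraries of different alleles differed by 0.23 (0.23 elsewhere). When the pair of libraries included Chic1-14kbD, the difference was 0.30, from 0.23 to 0.40. When it did not, the difference was 0.18, from 0.15 to 0.23, which overlapped the difference between libraries of a single allele.

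Whether contacts far from the edits differed between alleles was tested with edgeR's quasi-likelihood test over all unedited tile pairs of the chromosome, with the expected count as offset and Benjamini-Hochberg adjustment. Of 220 tile pairs of the distal end, 51 differed between the 4 alleles at an adjusted p under 0.05, 23.2%. The share over all 926 tile pairs was 23.1%, so the share of the members was that of the background. In 32 of the 51 both Chic1-14kbD libraries were above the other 6, and in 9 both were below. Of the 163 unedited tile pairs called elsewhere on the map, both were above in 66 and below in 69. Without the Chic1-14kbD libraries, an alternative added after seeing the data, 4 tile pairs differed between the remaining 3 alleles, beside a share of 1.84% over all.

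Between the 2 deletions, 27 of 220 tile pairs were higher in Chic1-14kbD than in Chic1-4kbD (8.75% over all) and 8 lower (8.32% over all). The pair with the smallest p joined the gene-poor tiles 3 and 13, 500 kb apart, over 56 primer pairs. Its log2 ratios were 1.18 and 1.39 in Chic1-14kbD and 0.09 and 0.02 in Chic1-4kbD. They were -0.13 and -0.12 in Linx-51kb-INV and 0.68 and 0.49 in 245kb-INV. Both Chic1-14kbD libraries were above the other 6, and the log2 fold change against Chic1-4kbD was 1.22 (standard error 0.17, adjusted p = 4.45e-05, edgeR). Tile 3 with tile 15, at the end of Atrx and 600 kb away, was next. It had 1.00 and 1.02 in Chic1-14kbD and between -0.31 and 0.19 in the other 6, with a fold change of 0.88 (standard error 0.15, adjusted p = 0.000400). Tiles 4 and 15 rose by 0.78 (adjusted p = 0.00339), and within tiles 12 and 13, left of Fgf16, contacts rose by 0.54 and 0.70 (adjusted p = 0.000790 and 0.00311).

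The 5 lower tile pairs with the smallest p involved Atrx or Magt1. Contacts within tile 15, the end of Atrx, were at 0.12 and 0.20 against 0.44 and 0.42 in Chic1-4kbD. The fold change was -0.26 (standard error 0.059, adjusted p = 0.00463, edgeR). Contacts of tile 15 with tile 18, which holds the end of Magt1, fell by 0.37, and those with the tile of Fgf16 by 0.34 (adjusted p = 0.0172 and 0.0178). Tile 18 also had fewer contacts with the gene-poor tiles 7 and 10, with fold changes of -0.82 and -0.94 (adjusted p = 0.0103 and 0.0132). The differences moved with distance. The median log2 fold change of tile pairs 0 to 350 kb apart was 0.13 at the distal end and 0.01 elsewhere, and 400 to 600 kb apart it was 0.44 and 0.16. Over all tile pairs the median was 0.10, and with library size as the offset it was 0.24. The split of higher to lower calls was then 43 to 2, and 20 to 11 when TMM factors were added to the decay. With library size as offset, contacts within tile 15 and of tile 15 with Fgf16 were higher in Chic1-14kbD, by 0.12 and 0.041. Leaving out 1 library ended the call of each of these 5: without Chic1-4kbD replicate 1 for tile 15 itself, and without Chic1-14kbD replicate 2 for the other 4. Of the 5 higher pairs, that within tile 13 lost its call without Chic1-14kbD replicate 2.

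The inversions were compared with the mean of the Chic1 deletions, so both comparisons share the Chic1-14kbD libraries. For Linx-51kb-INV, 3 tile pairs of the distal end were higher (5.62% over all) and 21 lower (7.02% over all). Those lower with the smallest p again joined tile 3 with tiles 15, 14 and 13 and tile 2 with tile 12, followed by contacts within tile 12 (fold change -0.42, adjusted p = 0.00326). Tile 3 with Fgf16 in tile 14, for example, had 0.46 and 0.86 in Linx-51kb-INV, 1.21 and 1.06 in Chic1-4kbD and 1.78 and 1.89 in Chic1-14kbD. The fold change was -0.81 (standard error 0.15, adjusted p = 0.00116, edgeR), with Linx-51kb-INV lowest and Chic1-14kbD highest. The higher ones lay within tile 19, by 0.29, between tiles 15 and 18, by 0.31, and between tiles 12 and 18, by 0.53 (adjusted p = 0.0106, 0.0235 and 0.0475). These 3 and the call within tile 12 were lost when either Linx-51kb-INV library was left out. The split of higher to lower was 8 to 12 with TMM factors and 0 to 44 with library size.

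Linx-51kb-INV and Chic1-4kbD share the library prefix B29, whose meaning the labels do not state. The libraries of 245kb-INV and Chic1-14kbD have prefixes that occur in no other allele, so if a prefix marks a batch, batch and allele cannot be told apart there. Within B29, 0 of 220 tile pairs differed between Linx-51kb-INV and Chic1-4kbD (0.108% over all) by edgeR and 0 by DESeq2. An unadjusted p under 0.05 by edgeR was reached by 15 of the 220, beside 62 of 926 over all. The median fold change there was -0.06 at the distal end and -0.04 over all.

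For 245kb-INV, the largest edit, 2 tile pairs were higher (1.30% over all) and 1 was lower (0.432% over all). Contacts between tiles 15 and 17, the end and the start of Atrx, had log2 ratios of -0.03 and 0.07 in 245kb-INV and between -0.53 and -0.36 in the other 6 libraries. The groups did not overlap, and the fold change against the deletions was 0.49 (standard error 0.090, adjusted p = 0.00407, edgeR). Contacts within tile 10 were at 1.61 and 1.73, against 1.07 to 1.57 in the other 6, and rose by 0.38 (standard error 0.089, adjusted p = 0.0254) over 4 primer pairs. Contacts within tile 23, with Pgk1 and Taf9b, were at -0.01 and 0.06, against 0.26 to 0.50 in the other 6, and fell by 0.40 (standard error 0.068, adjusted p = 0.00207). In these 3 tile pairs, which were picked by this test, the 2 clones of 245kb-INV were on the same side of all other libraries. This is a description and adds no support. The contact within Atrx and that within tile 23 were also among the 4 called without Chic1-14kbD (adjusted p = 0.0203 each, edgeR). Against Chic1-4kbD alone, however, no tile pair of the distal end was called for 245kb-INV by edgeR. An unadjusted p under 0.05 was reached there by 17 of 220, beside 80 of 926 over all. Without 245kb-INV replicate 2 the contact within Atrx and that within tile 10 were no longer called, and that within tile 10 was also lost without either Chic1-4kbD library.

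**Figure D5:**
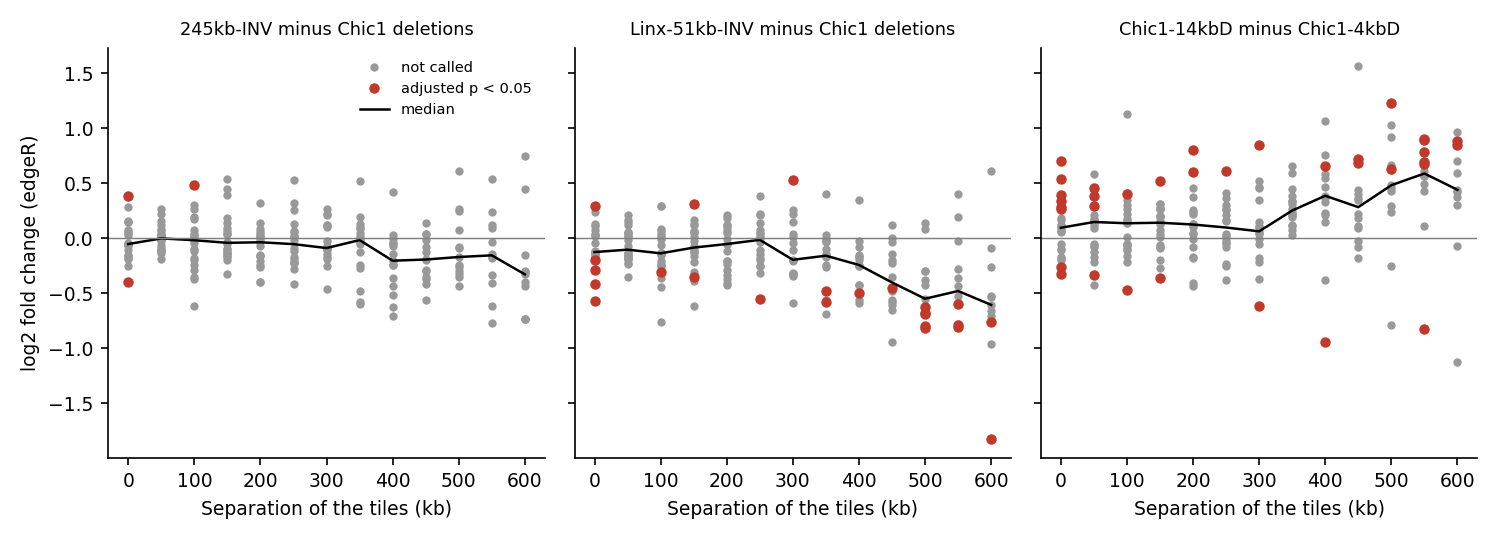
Log2 fold change (edgeR) of each of 220 tile pairs against the separation of its tiles in kb for 245kb-INV and Linx-51kb-INV against the Chic1 deletions and for Chic1-14kbD against Chic1-4kbD, with calls at an adjusted p under 0.05 in red and the median as a black line. The median for Chic1-14kbD rises with separation, to 0.44 at 400 to 600 kb, while that of Linx-51kb-INV falls, and both comparisons hold the Chic1-14kbD libraries.

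The squares of the insulation score were tested in the same way. Of 95 positions, 42 differed between the 4 alleles by edgeR (44.3% over all), with both Chic1-14kbD libraries above the other 6 in 22 and below in 13. Of the 124 positions called elsewhere, both were above in 50 and below in 57. Overlapping squares are not independent. Without Chic1-14kbD, 2 positions were called (5.07% over all): 102864523, left of Fgf16, and 103054523, in Atrx, where 245kb-INV had 0.15 and 0.29 and the other 4 libraries between -0.06 and 0.003.

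Fragments were tested by their sums over all kept partners, with no filter on the fragment's own primer total. These sums differed between the alleles for 52 of 261 fragments (24.9% over all). In 39 both Chic1-14kbD libraries were above the other 6, and in 9 both were below. Of the 187 fragments called elsewhere, both were above in 114 and below in 66. One of the 52 at the distal end, 103380154-103384215, holds the start of Pgk1. Its log2 ratio was -0.06 and 0.14 in Chic1-14kbD and -1.01 and -0.94 in Chic1-4kbD, with a fold change of 1.02 (standard error 0.16, adjusted p = 0.00372, edgeR). It was -0.94 and -0.97 in Linx-51kb-INV and -0.02 and -0.40 in 245kb-INV, so 245kb-INV overlapped Chic1-14kbD. The neighboring fragment 103384216-103390203, within Pgk1, was at -0.71 and -0.22 in Chic1-14kbD and between -2.18 and -1.80 in the other 6, a fold change of 1.46 (standard error 0.22, adjusted p = 0.00372). The fragments 102897389-102902008 and 102868313-102869963, in the gene-poor part left of Fgf16, rose by 1.06 and 1.30 (adjusted p = 0.00372 and 0.00407). In the latter 245kb-INV replicate 1, at 0.50, overlapped Chic1-14kbD, at 0.48 and 0.38. The fragment with the smallest p over the 4 alleles, 102378080-102378386, was lower in Chic1-14kbD, at 0.35 and 0.85 against 1.23 to 2.03. It was the only fragment called without Chic1-14kbD (0.313% over all), when Linx-51kb-INV had 2.02 and 2.03, 245kb-INV 1.27 and 1.23 and Chic1-4kbD 1.51 and 1.36.

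Of 10869 single primer pairs of the distal end with a mean count of at least 10, 24 differed between the alleles (0.393% over all). In 16 both Chic1-14kbD libraries were below the other 6, and in 4 both were above. Of the 170 primer pairs called elsewhere, both were below in 135 and above in 24. At the distal end, the pair with the smallest p joined the fragment 103151775-103151868 between Atrx and Magt1 with 103015640-103016349 in Atrx, 136 kb away. The counts were 734 and 2369 in 245kb-INV, 1742 and 1919 in Linx-51kb-INV and 1281 and 812 in Chic1-4kbD. They were 26 and 1 in Chic1-14kbD. In the other 6 libraries the log2 ratio was between 2.43 and 4.46, far above the expectation, and in Chic1-14kbD it was -3.03 and -3.79 (adjusted p over 4 alleles = 1.90e-07, edgeR). The same short fragment was in the pair of rank 4, with 102587713-102589455, where Chic1-14kbD had counts of 34 and 5 and the other 6 between 372 and 1368. Its 94 bases are shown by the annotated fragment positions, which split each HindIII site in its middle, with the letters of the sites in capitals.
Fragment between Atrx and Magt1, chrX:103151775-103151868, + strand: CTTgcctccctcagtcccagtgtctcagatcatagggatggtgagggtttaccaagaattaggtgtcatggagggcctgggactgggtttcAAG
The other primer pairs among the 5 with the smallest p were also lower in Chic1-14kbD. One joined fragments left of Fgf16 and 433 kb apart, 102856637-102857751 and 102423921-102424752, with counts of 182 and 19 in Chic1-14kbD and of 1572 to 3825 in the other 6. Without Chic1-14kbD no primer pair of the distal end was called by edgeR (0.00213% over all), with 215 of 10413 at an unadjusted p under 0.05. The Chic1-14kbD libraries also had the lowest shares of contacts with chromosome 5 and came from a single clone, and the part of these in the differences was not tested.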

How the data were processed

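The authors made 5C libraries from HindIII-digested chromatin of mESCs, aligned single-end reads with bowtie2 (version not given) to all pairs of forward and reverse primers, and deposited the raw count of each primer pair per library, before primers were discarded or maps pooled, binned and normalized. Positions are in mm9, and genes are from the GENCODE annotation of that build. The depth of a library was 1614282 to 21046109 counts, and values of the shallowest library are the least precise.

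A primer was dropped where its total over the libraries was under 0.1 or over 10 times the median for forward or reverse primers. In the fit of single fragments this applied to the partners only. Expected counts were the mean count in 40 distance bins of each library, over pairs whose distance no edit changes. Ratios are log2 of observed over expected. Tile pairs, squares and fragments with a mean count of at least 50, and primer pairs with at least 10, were tested over all 8 libraries in one fit each (glmQLFit and glmQLFTest, edgeR 4.0.16, R 4.3.3), with log expected counts as offset and Benjamini-Hochberg adjustment over the chromosome at 0.05. DESeq2 1.42.0 was an alternative. Decay exponents used 12 bins, with two-sided exact permutation over library signs. Figures used matplotlib 3.10.9 in Python 3.11.15. The fits were tested on simulated data.

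The text names the 10 strongest tile pairs, every border, and up to 5 called features with the smallest p per direction. Replicate numbers only name the libraries, in the order of the records, since the labels give none. The members and lists were chosen with earlier results of these data known. Alternatives were other offsets, filters, tile and square sizes, balanced primer factors, and leaving out each library.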

Additional observations from a re-analysis of the deposited data

Results flagged for a closer look

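Counts that join primers of the distal end with the control region on chromosome 5 enter none of the comparisons above. They took a median of 1.49% of the counts of these primers, from 0.112% in Chic1-14kbD replicate 2 to 2.62% in Linx-51kb-INV replicate 2, and were picked out as a signal outside the main measurement. The 2 Chic1-14kbD libraries, at 0.112% and 0.208%, were below the other 6, which began at 1.18%. No control library without such contacts was analysed here. Among 18 sets of 8 library values, decay exponents and scores of borders and strong tile pairs among them, none held a library set far apart from the rest by Dixon's test. This test looks for a single library and is not suited to 2 that stand apart together, as those of Chic1-14kbD did here.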

How the results depend on the processing

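Over the 4 alleles, leaving out a library gave 20 to 68 called tile pairs of 220 in place of 51, with 20 without Chic1-14kbD replicate 2, and leaving out both gave 4. For Chic1-14kbD against Chic1-4kbD, 35 became 9 to 40, with 15 and 16 without Chic1-4kbD replicates 1 and 2 and 9 without Chic1-14kbD replicate 2, and 75 against Linx-51kb-INV alone. For Linx-51kb-INV, 24 became 7 to 31, with 7 without its replicate 2, 13 without Chic1-4kbD replicate 2 and 14 without Chic1-14kbD replicate 2. It became 44 with library size as offset, 42 with DESeq2, 12 with 25 kb tiles and 0 within B29. For 245kb-INV, 3 became 2 to 12, with 12 without its replicate 1, 0 with library size or against Chic1-4kbD alone, 13 with DESeq2, 1 with 25 kb tiles, 5 with 100 kb tiles or with all X-chromosomal features, and 6 against Linx-51kb-INV alone.

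Squares called, 42, became 12 to 61, with 26 without Linx-51kb-INV replicate 1, 27 without Chic1-4kbD replicate 2 or Chic1-14kbD replicate 1 and 12 without Chic1-14kbD replicate 2. They were 93 with library size, 27 and 66 with 50 kb and 200 kb squares, and 2 without both Chic1-14kbD libraries. Fragments called, 52, became 16 to 67, with 32 without Linx-51kb-INV replicate 1, 33 and 27 without Chic1-4kbD replicates 1 and 2 and 16 without Chic1-14kbD replicate 2. They were 148 with library size and 1 without both. Primer pairs called, 24, became 6 to 33, with 12 and 9 without Linx-51kb-INV replicates 1 and 2, 8 and 7 without Chic1-4kbD replicates 1 and 2 and 6 without Chic1-14kbD replicate 1. They were 229 with DESeq2, 5 at a mean count of at least 50 and 0 without both.

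The decay exponent was -0.758 from 50 to 600 kb, -1.19 with the median of a bin and -0.782 with balanced primer factors, and its difference from the middle of the map, negative in every setting with that reference, turned to 0.0428 against the proximal end. The border at 102444523 was -0.13 with balanced factors, 102624523 was 0.011 with 200 kb squares and 0.034 balanced, 102854523 was -1.13 with 50 kb squares and 0.12 balanced, and 103224523 was -0.11 with 200 kb squares. The spread within and between alleles was 0.22 and 0.33 with library size. With library size the fold changes of Chic1-14kbD against Chic1-4kbD within tile 15 and between tiles 14 and 15 turned to 0.12 and 0.041. Balanced factors kept 4 of the 10 strongest tile pairs. Another 193 recomputed values of these results stayed within 1.5 times the count or within 1 SD of the value given, or on the same side of the test. The comparisons with 1 allele alone and those without both Chic1-14kbD libraries were added after seeing the data. The causes were not tested. Leaving out a library moved border scores and exponents by less than their SD. Dropping a single library cannot move a mean over all of them by that much, so this was no check of these values. They are counted among the 193. Depth limits single primer pairs most. No paired analysis was possible because the labels give no replicate numbers.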
